A study of Homo sapiens with 24 samples.

Results

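HepaRG is a human liver tumour line that differentiates into hepatocyte-like and biliary-like cells. The samples described here are the 3 arrays of HepaRG cells collected 12 h after replating, set against the 3 arrays collected at 8 h. They were chosen by the time in their labels, and they are 6 of the 24 arrays of a course of 8 times, from 0 h to 48 h, with 3 arrays each. The other times are 0, 1 and 4 h before them and 16, 24 and 48 h after them. Both groups came from cells that had grown for 2 weeks, had then spent 2 weeks with 2% DMSO, which holds this line in a differentiated state, and were detached by mild trypsin treatment and replated sparsely, and by the labels the groups differ only in the hours since replating. All cells are of 1 line, no array of cells that stayed undisturbed to the same hours was used here, and the labels do not say whether the numbered replicates were separate cultures. A p-value therefore measures a spread between arrays, which may be technical. For single genes this spread was pooled over the replicates of all 8 times, so it is not that of the 12 h and 8 h arrays alone.

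A resting cell that returns to division passes from G1 into S phase, where it copies its DNA. E2F transcription factors, held back by RB family proteins until cyclin-dependent kinases act, switch on the genes for this work. CDC6, CDT1 and the origin recognition complex (ORC) load the MCM2 to MCM7 helicase on origins in G1, and MCM10, CDC45 and the GINS complex then activate it so that primase and the DNA polymerases can start. Differentiated hepatocytes divide rarely, and loss of liver tissue or plating at low density can bring them back into the cycle.

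Transcripts of DNA replication genes were higher at 12 h than at 8 h, led by MCM10, which helps to activate the replicative helicase, the transcription factor E2F1 and the helicase subunit MCM2. The probe sets of E2F1 disagreed, as given below. Of 9966 genes tested, 31 were at least 2-fold higher at 12 h and 17 at least 2-fold lower, with a Benjamini-Hochberg adjusted p under 0.05 in a limma fit over all 24 arrays. These are 0.311% and 0.171% of the genes. With the adjusted p alone, 83 genes (0.833%) were higher and 58 (0.582%) lower. Of 120 tested genes on 7 lists of replication functions, 19 were higher by the stricter rule, 34 by the adjusted p alone and 0 lower by either. The lists were drawn up with earlier results of these data known, so these counts are descriptions. The median log2 difference, 12 h minus 8 h, was 0.60 over these 120 genes and 0.00 over all genes tested. Log2 differences are of the signal plus 18, which understates differences of dim genes.

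Marker genes were read to check the labelled cells. Albumin (ALB), the main plasma protein made by hepatocytes, had signals of 48859, 43111 and 46222 at 12 h, against 56965, 52272 and 58571 at 8 h, and did not pass the test (adjusted p = 0.40, limma). The summed signal of the 10 hepatocyte markers, all tested, was 294300 to 324200 at 12 h and 371900 to 375900 at 8 h, without overlap (exact permutation p = 0.1, two-sided, the smallest that 3 against 3 arrays allow). That of 9 of 11 stellate and fibroblast markers was 3568 to 3687 at 12 h and 2774 to 3440 at 8 h, also without overlap. DCN and ACTA2 were the brightest and carried most of this sum. Of the 9 markers, 5 had a positive and 4 a negative log2 difference, and 0 passed the adjusted p. The 10 of 15 cholangiocyte markers that were tested summed to 31260 to 32860 at 12 h and 32980 to 36270 at 8 h, without overlap (exact permutation p = 0.1). The 6 of 11 endothelial markers summed to 374 to 493 at 12 h and 296 to 705 at 8 h. The 6 of 13 macrophage and leukocyte markers summed to 515 to 846 at 12 h and 652 to 1079 at 8 h. The 1 of 7 erythroid markers had 13.1 to 30.4 at 12 h and 13.5 to 124 at 8 h. Endothelial, leukocyte and erythroid ranges thus overlapped between the times. Single markers on these lists varied in level. CDH5, LYZ and ALAS2 averaged under 18 at both times. CD14 averaged 327 at 12 h and 499 at 8 h, CD3D 140 at both times, and LYVE1 104 and 102. The fraction of cells of each kind and the RNA per cell cannot be told apart in these bulk samples. The 3′ to 5′ signal ratio of ACTB, a measure of RNA integrity, was 1.06 to 1.17 at 12 h and 1.21 to 1.48 at 8 h. That of GAPDH was 0.897 to 1.02 at 12 h and 1.09 to 1.49 at 8 h. Both ratios were lower at 12 h without overlap (exact permutation p = 0.1 each). Their part in the differences below was not tested. Pearson correlations of log2 signals were 0.953 to 0.959 among the 12 h arrays, 0.947 to 0.948 among the 8 h arrays and 0.943 to 0.950 between the times.

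Promoters are shown for the 6 replication genes with the largest positive differences, whether or not they hold a match, because E2F factors bind short elements of this kind near the start sites of replication genes. Windows of 300 bases, from 250 before to 50 after the first listed start site, came from RefSeq on GRCh38.p14, and 8116 of the 9966 tested genes had one. The letters TTTCCCGC, TTTCGCGC, TTTGCCGC and TTTGGCGC were searched on both strands, where a match on one strand can overlap a match on the other. The related spellings TTTCGCGG and TTTGGCGG were added after these promoters had been read. Below, 150 bases before and 20 after each start are printed 5′ to 3′ along the gene, with both kinds of match in capitals on either strand. E2F1 lies on the minus strand at chr20:33686366-33686535, and the other windows are on the plus strand, MCM2 at chr3:127598261-127598430, CDC45 at chr22:19479770-19479939, CHEK1 at chr11:125626079-125626248, DTL at chr1:212035598-212035767 and MCM10 at chr10:13161408-13161577.
E2F1: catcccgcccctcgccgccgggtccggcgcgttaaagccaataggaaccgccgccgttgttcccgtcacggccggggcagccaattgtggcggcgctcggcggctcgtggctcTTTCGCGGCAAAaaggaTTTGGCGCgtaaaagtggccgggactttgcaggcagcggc
MCM2: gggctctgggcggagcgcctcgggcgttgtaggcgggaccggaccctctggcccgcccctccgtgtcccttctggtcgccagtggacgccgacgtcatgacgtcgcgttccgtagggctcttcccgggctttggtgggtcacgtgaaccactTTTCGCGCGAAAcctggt
CDC45: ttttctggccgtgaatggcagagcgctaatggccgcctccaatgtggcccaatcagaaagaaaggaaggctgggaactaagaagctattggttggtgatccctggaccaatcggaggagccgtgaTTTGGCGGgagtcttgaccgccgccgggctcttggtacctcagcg
CHEK1: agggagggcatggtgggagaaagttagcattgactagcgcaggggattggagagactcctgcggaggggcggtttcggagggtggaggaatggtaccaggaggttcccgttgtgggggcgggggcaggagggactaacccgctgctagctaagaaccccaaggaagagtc
DTL: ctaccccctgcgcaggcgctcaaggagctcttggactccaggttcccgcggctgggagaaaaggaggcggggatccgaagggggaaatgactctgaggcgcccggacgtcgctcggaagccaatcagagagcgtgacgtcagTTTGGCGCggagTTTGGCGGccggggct
MCM10: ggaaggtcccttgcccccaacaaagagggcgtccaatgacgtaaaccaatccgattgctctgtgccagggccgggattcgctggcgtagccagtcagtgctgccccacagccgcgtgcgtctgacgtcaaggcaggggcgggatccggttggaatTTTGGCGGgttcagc

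The E2F1 window holds TTTGGCGC starting 20 bases before the start site, and a run in which TTTCGCGG begins 37 bases before it and overlaps TTTGCCGC of the opposite strand. In MCM2, TTTCGCGC is present on both strands as 1 palindromic run that begins 3 bases after the start. DTL holds TTTGGCGC 8 bases before its start and TTTGGCGG 5 bases after it, and MCM10 holds TTTGGCGG 6 bases after its start. CDC45 holds TTTGGCGG 25 bases before its start, and the CHEK1 window holds no match of either kind, so 3 of the 6 windows hold one of the first 4 spellings. For CDC45 and CHEK1, 3 promoters each were listed, and only the first of each was read here. At least 1 of the first 4 spellings stood in 3.31% of all 35116 promoters in the table and in 5.22% of those of tested genes. It stood in 9 of 15 promoters of the replication genes at least 2-fold higher at 12 h and in 19 of 77 of the replication genes that did not pass the adjusted p. It stood in 1 of 10 promoters of the other genes at least 2-fold higher, and in 0 of 16 of those at least 2-fold lower. The added spellings were taken from these promoters, so counts of them over the replication genes are not given. A match is a run of letters and not a measured binding site.

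**Figure D1:**
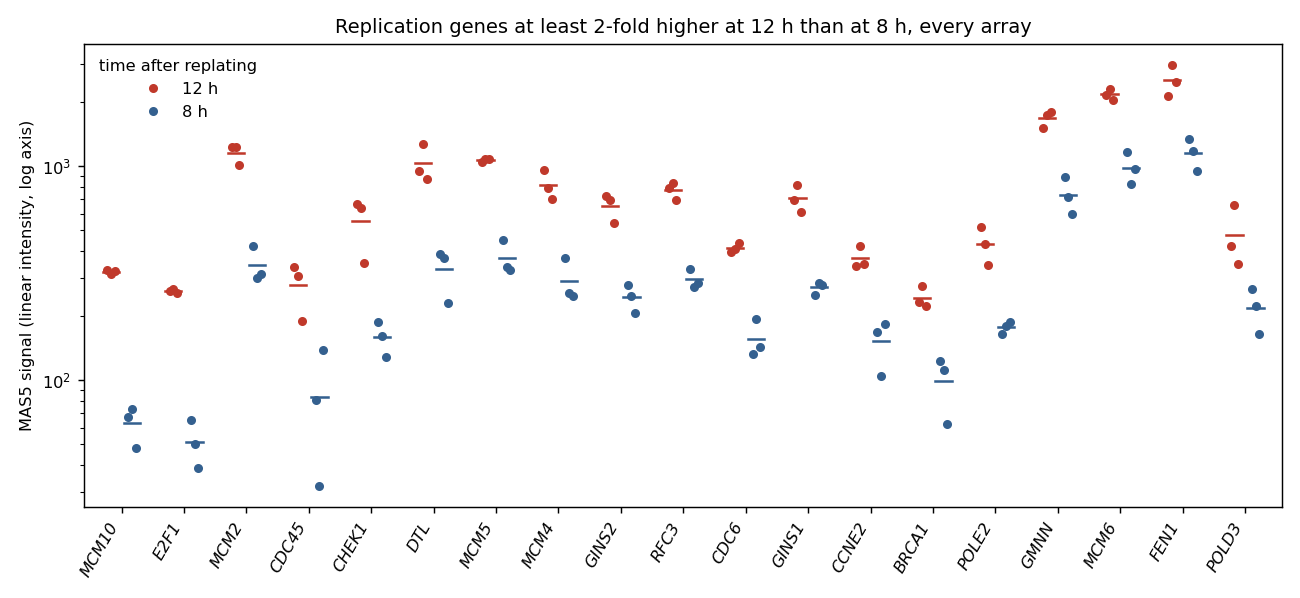
MAS5 signals (linear intensity on a log axis) of the 19 replication genes that were at least 2-fold higher at 12 h with an adjusted p under 0.05, ordered by log2 difference. Each dot is 1 array, with 12 h left of 8 h, and the bars are the means of 3 arrays; in every gene the 3 arrays of 12 h lie above the 3 of 8 h.

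Among the regulators of entry into S phase, 4 of 17 tested genes were past the adjusted p, all higher, 2 of them at least 2-fold. E2F1, the transcription factor that drives many of these genes and its own, had signals of 260, 265 and 255 at 12 h, against 64.8, 50.4 and 38.9 at 8 h. All arrays of 12 h lay within a narrow band far above the dim 8 h arrays, and the log2 difference was 2.02 ± 0.38 (SE, n = 3 each, adjusted p = 0.0031, limma). A second E2F1 probe set gave 0.24 and did not pass, so the probe sets of this gene disagree. CCNE2, a cyclin E that activates CDK2 at the entry into S phase, had 343, 422 and 350 at 12 h, against 168, 105 and 183 at 8 h. The times did not overlap and the log2 difference was 1.22 ± 0.24 (adjusted p = 0.0046), while a second probe set gave 0.27. The other cyclin E, CCNE1, had 164, 192 and 234 at 12 h, against 182, 109 and 257 at 8 h, with the 12 h arrays inside the range of 8 h (log2 difference 0.15 ± 0.32, adjusted p = 0.90).

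Past the adjusted p alone were CCND3, a D-type cyclin that activates CDK4 and CDK6 (log2 difference 0.74), and SKP2, the subunit of a ubiquitin ligase that marks the inhibitor p27 for destruction (0.85). SKP2 is read by a probe set that can bind related sequences, and 2 other SKP2 probe sets gave 0.21 and 0.17. CCND1, the D-type cyclin induced by growth signals, had 1676, 1409 and 1270 at 12 h, against 1369, 968 and 1060 at 8 h. These ranges overlap, and the log2 difference of 0.36 ± 0.17 did not pass (adjusted p = 0.38). CCNA2, the cyclin A of S phase and G2, had 368, 326 and 289 at 12 h, against 272, 321 and 258 at 8 h, again overlapping (0.20 ± 0.22, adjusted p = 0.78).

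Origin licensing held the highest median of the 7 lists, with a log2 difference of 1.00 over 16 tested genes. By the adjusted p, 9 of the 16 were higher, 6 of them at least 2-fold, and 0 were lower. MCM2, a subunit of the replicative helicase, had 1231, 1223 and 1012 at 12 h, against 422, 301 and 312 at 8 h. Every 12 h array lay far above the highest 8 h array, and the log2 difference was 1.70 ± 0.22 (adjusted p = 2.7e-05, limma). MCM5, another subunit, had 1042, 1081 and 1084 at 12 h, against 451, 337 and 328 at 8 h. The 12 h arrays were nearly level, and the log2 difference was 1.49 ± 0.18 (adjusted p = 2.7e-05), with 1.52 from a second probe set that did not pass on its own. MCM4 had 958, 790 and 700 at 12 h, against 373, 254 and 248 at 8 h (1.44 ± 0.19, adjusted p = 2.7e-05), and its 3 other probe sets gave 0.91, 0.80 and 1.77. MCM6 was the brightest of them, with 2150, 2296 and 2045 at 12 h, against 1160, 821 and 970 at 8 h. Its times did not overlap and its log2 difference was 1.14 ± 0.15 (adjusted p = 2.7e-05).

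The remaining helicase subunits had smaller values. MCM3 had 1532, 1236 and 1482 at 12 h, against 802, 936 and 882 at 8 h (log2 difference 0.68 ± 0.18, adjusted p = 0.048), without overlap, but its call was lost whichever of the 6 arrays was left out. MCM7 had 1701, 1750 and 1753 at 12 h, against 1054, 1210 and 1250 at 8 h. The 12 h arrays all lay above the 8 h arrays, yet the log2 difference of 0.56 ± 0.16 did not pass (adjusted p = 0.077), while a second MCM7 probe set gave 1.02 (adjusted p = 0.0057).

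The helicase loader CDC6 had 398, 409 and 439 at 12 h, against 132, 193 and 143 at 8 h. It was higher in every 12 h array, by 1.33 ± 0.25 on the log2 scale (adjusted p = 0.0035), and its second probe set gave 1.42. Geminin (GMNN), which binds CDT1 and blocks a repeat of licensing, had 1504, 1729 and 1781 at 12 h, against 888, 718 and 594 at 8 h. The times lay well apart, with a log2 difference of 1.18 ± 0.16 (adjusted p = 2.9e-05). CDT1 itself was dim, at 139, 86.2 and 104 at 12 h, against 38.0, 81.7 and 9.41 at 8 h. Its scatter at 8 h was wide and its log2 difference of 1.24 ± 0.55 did not pass (adjusted p = 0.32).

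Subunits of the origin recognition complex differed among themselves. ORC1, the subunit whose protein level follows the cell cycle in human cells, had 174, 219 and 170 at 12 h, against 120, 61.4 and 15.4 at 8 h. Its log2 difference of 1.51 ± 0.43 did not pass (adjusted p = 0.072). ORC6 (0.86) and ORC3 (0.76) passed the adjusted p alone, ORC6 on a probe set that can bind related sequences, while ORC2, ORC4 and ORC5 had log2 differences of 0.36, 0.21 and 0.20 that did not pass.

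Origin firing, the activation of the loaded helicase, included the gene with the largest positive log2 difference of all 9966. MCM10, which binds the loaded helicase and is needed to activate it, had 327, 314 and 322 at 12 h, against 67.1, 73.2 and 48.1 at 8 h. The 3 arrays of 12 h differed by a few percent and lay far above those of 8 h, with a log2 difference of 2.08 ± 0.31 (adjusted p = 9.4e-05, limma). CDC45, a part of the active helicase, had 339, 308 and 189 at 12 h, against 80.6, 31.9 and 138 at 8 h. The groups came close, and the log2 difference of 1.66 ± 0.35 (adjusted p = 0.0099) was lost without 12 h replicate 1, 12 h replicate 2 or 8 h replicate 2, with an adjusted p of up to 0.093. The GINS subunit GINS2 had 721, 697 and 540 at 12 h, against 279, 246 and 206 at 8 h (1.35 ± 0.18, adjusted p = 2.7e-05). GINS1 had 697, 816 and 607 at 12 h, against 251, 284 and 279 at 8 h (1.32 ± 0.19, adjusted p = 5.5e-05). Both were clear of overlap. The other 10 tested genes of this list did not pass, among them GINS3 (0.45), GINS4 (0.53), the kinase CDC7 that triggers firing (0.81) and its activator DBF4 (0.04).

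Of 25 genes for polymerases, primase, the sliding clamp and its loader, 9 were higher by the adjusted p, 4 at least 2-fold, and the median log2 difference was 0.77. RFC3, a subunit of the clamp loader, had 793, 838 and 693 at 12 h, against 332, 273 and 283 at 8 h. It was higher by 1.34 ± 0.18 on the log2 scale (adjusted p = 3.9e-05, limma), without overlap, and 1.42 by a second probe set. FEN1, the nuclease that removes the flaps of Okazaki fragments, had 2132, 2966 and 2462 at 12 h, against 1345, 1173 and 947 at 8 h (1.11 ± 0.17, adjusted p = 0.00014). POLE2, a subunit of the leading strand polymerase, had 519, 432 and 344 at 12 h, against 165, 178 and 187 at 8 h. Its log2 difference was 1.19 ± 0.25 (adjusted p = 0.0098), and the adjusted p was 0.075 without 12 h replicate 1. POLD3, a subunit of polymerase delta, had 425, 658 and 347 at 12 h, against 265, 222 and 164 at 8 h (1.05 ± 0.23, adjusted p = 0.013). Its call was lost without 12 h replicate 2 or 8 h replicate 3, with an adjusted p of up to 0.16.

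PCNA, the clamp that holds polymerases on DNA, had 3991, 3476 and 2302 at 12 h, against 1609, 1777 and 1379 at 8 h. Its arrays did not overlap, and its log2 difference of 1.00 ± 0.19 (adjusted p = 0.0043) lay just under the 2-fold limit; without 12 h replicate 1 or 8 h replicate 3 it did not pass, with an adjusted p of up to 0.058. Close to it were the primase subunit PRIM1 (0.99), the cohesion factor DSCC1 (0.99), the clamp loader subunit RFC4 (0.98) and, lower, the single-strand binding subunit RPA1 (0.71), all past the adjusted p alone. The catalytic subunit of polymerase epsilon, POLE, had a log2 difference of -0.55 that did not pass (adjusted p = 0.59).

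Of 17 tested genes that supply deoxynucleotides, 2 were higher by the adjusted p and 0 at least 2-fold, with a median log2 difference of 0.23. Thymidylate synthase (TYMS), which makes the thymine nucleotide, had 9570, 9125 and 8800 at 12 h, against 6323, 6265 and 3694 at 8 h (0.80 ± 0.17, adjusted p = 0.0094, and 0.12 without 8 h replicate 3). RRM1, the large subunit of ribonucleotide reductase, had 1299, 1261 and 1000 at 12 h, against 695, 750 and 719 at 8 h, without overlap (0.70 ± 0.17, adjusted p = 0.027). RRM2, the small subunit that limits the enzyme in cycling cells, had 2651, 2654 and 2242 at 12 h, against 2743, 2648 and 2018 at 8 h. Its arrays overlapped almost wholly, with a log2 difference of 0.03 ± 0.15 (adjusted p = 0.96). Thymidine kinase TK1 had a difference of 0.36 that did not pass.

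Of 15 tested genes of the replication checkpoint and recombination, 4 were higher by the adjusted p, 3 at least 2-fold, and the median log2 difference was 0.65. CHEK1, the kinase that restrains origin firing when forks stall, had 665, 637 and 352 at 12 h, against 186, 161 and 128 at 8 h. Replicate 3 of 12 h was lower than the other two and still above all 8 h arrays, and the log2 difference was 1.65 ± 0.28 (adjusted p = 0.00058, limma), with 0.75 from a second probe set that did not pass. DTL, which directs the destruction of CDT1 at replicating DNA, had 952, 1268 and 869 at 12 h, against 390, 373 and 230 at 8 h (1.60 ± 0.26, adjusted p = 0.00046). BRCA1, a recombination factor, had 231, 274 and 223 at 12 h, against 123, 112 and 62.3 at 8 h (1.19 ± 0.28, adjusted p = 0.021). It lost its call without 12 h replicate 1, 12 h replicate 2 or 8 h replicate 3, with an adjusted p of up to 0.16, and a second probe set gave 0.24. UNG, which removes uracil from DNA, passed the adjusted p alone (0.85).

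Chromatin assembly factors had a median log2 difference of 0.49 over 16 tested genes, all of them positive, with 2 past the adjusted p. These were NASP, a histone chaperone (0.95), and DNMT1, which copies DNA methylation to the new strand (0.64). Of 7 tested replication-dependent histone genes, whose transcripts mostly lack the poly(A) tail on which this 3′ labelling relies, 0 passed and 1 had an unadjusted p under 0.05 (median 0.16). Over all genes tested, 1290 of 9966 had such an unadjusted p in limma.

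**Figure D2:**
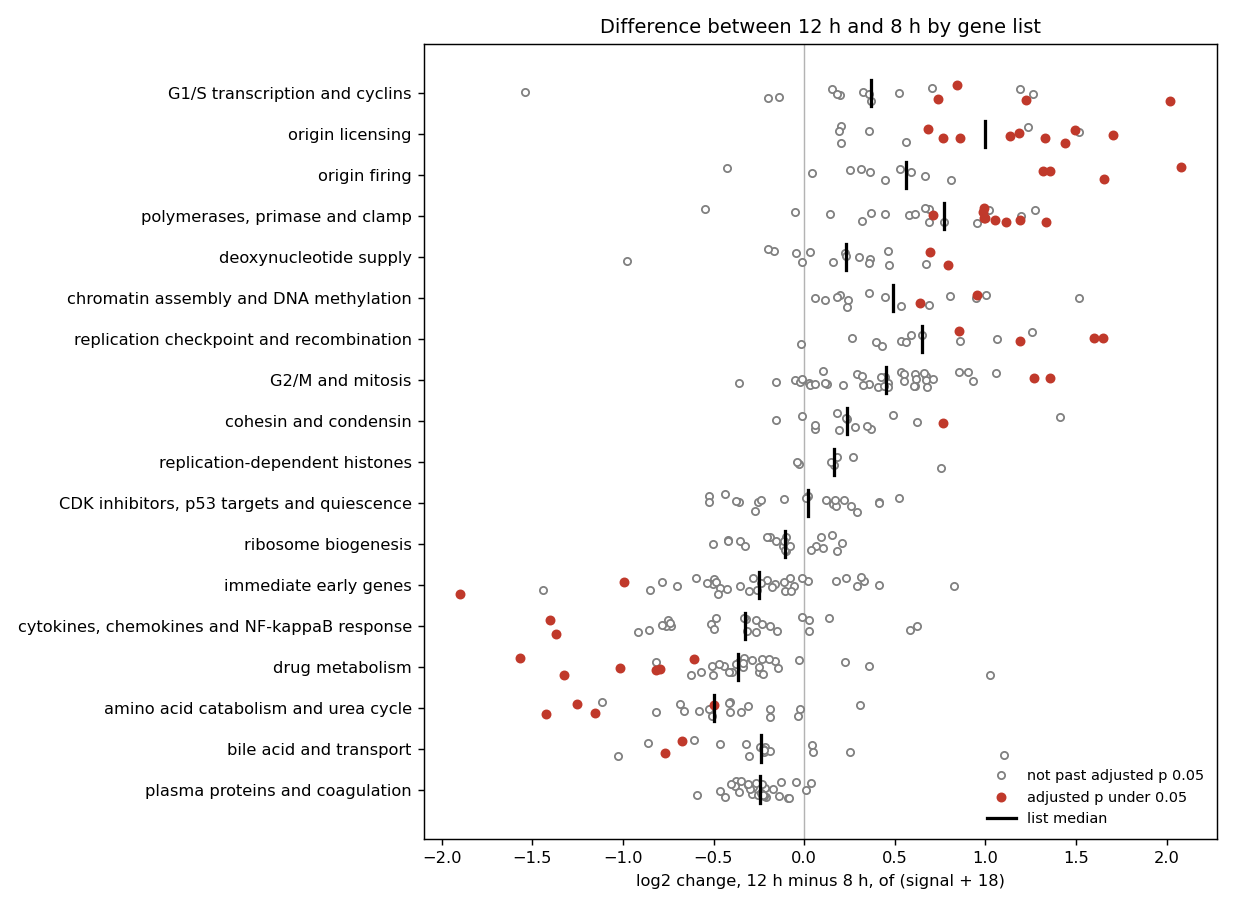
Log2 differences, 12 h minus 8 h, of every tested gene on 18 lists. Filled dots passed the adjusted p in limma, open dots did not, and black bars are list medians; the 7 replication lists, at the top, have medians from 0.23 to 1.00, and drug metabolism and amino acid lists lie below 0.

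Leaving out each of the 6 arrays in turn, 15 of the 19 replication genes stayed past the adjusted p every time, as did 17 of the 34. The other 17 were CDC45, POLD3, POLE2, BRCA1, PCNA, CCND3, SKP2, ORC3, ORC6, MCM3, RPA1, DSCC1, RRM1, TYMS, NASP, DNMT1 and UNG, with an adjusted p of up to 0.24 (ORC3), and each of the 6 arrays ended at least 1 of these calls. Of the other 12 genes at least 2-fold higher, 4 did so, namely MAD2L1, POSTN, VRK1 and PCLAF. Of the 17 at least 2-fold lower, CYP1A1, TDO2, TNFAIP3, SULT2A1, MAT1A and TNS3 did, 6 in all, and of the 58 lower by the adjusted p alone, 7 did. In the other processing alternatives, treated below, the adjusted p reached 0.073 for CYP1A1 and 0.070 for CCNE2 (limma), so both lost their calls there. The fewest lower genes at 2-fold were 7, without 8 h replicate 3, and the fewest genes past the adjusted p alone were 49, also without 8 h replicate 3.

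Genes of G2 and mitosis, which act after DNA has been copied, had a median log2 difference of 0.45 over 40 tested, and 2 of them passed, both higher and at least 2-fold. MAD2L1, of the spindle checkpoint, had 758, 1045 and 558 at 12 h, against 284, 250 and 332 at 8 h. Its arrays lay well apart, with a log2 difference of 1.36 ± 0.20 (adjusted p = 9.4e-05, limma). TTK, a kinase of the same checkpoint, was dim, at 225, 211 and 131 at 12 h, against 42.3, 97.4 and 67.6 at 8 h (1.27 ± 0.31, adjusted p = 0.027), and its call was lost in 4 of the 6 fits with 1 array left out. The mitotic kinase CDK1 had 1051, 1008 and 918 at 12 h, against 658, 821 and 489 at 8 h. It did not overlap and did not pass (0.61 ± 0.21, adjusted p = 0.16). Cyclin B1 (CCNB1) had 657, 646 and 616 at 12 h, against 468, 435 and 407 at 8 h (0.53 ± 0.17, adjusted p = 0.12). The proliferation antigen MKI67 had a log2 difference of 0.43 (adjusted p = 0.50), and its 3 other probe sets ran from -0.51 to 0.88.

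The time course placed the difference within a longer change. For the 19 replication genes, the median of their mean signals lay at 360 before replating (0 h), at 305 by 1 h and at 165 by 4 h. It was 244 for the 8 h arrays and 652 for the 12 h arrays, then 1073 for 16 h, 1205 for 24 h and 613 for 48 h. The highest mean fell at 24 h in 14 of them and at 16 h in 5, and the lowest at 4 h in 13 and at 8 h in 6. Of the 40 G2 and mitosis genes, 28 had their highest mean at 48 h and 10 at 24 h. E2F1 averaged 146 at 0 h, then 51.4 by 8 h and 260 by 12 h, with 311 for the 16 h arrays and 205 for those of 24 h. Over the times 8, 12, 16 and 24 h, RRM2 averaged 2470, 2516, 3932 and 11633, so its highest mean came later than that of E2F1. Over the same times CCNA2 averaged 284, 328, 495 and 1447, and CDK1 averaged 656, 993, 1568 and 5034. CCND1, by contrast, had its highest mean, 1452, at 12 h, between 1132 for the 8 h arrays and 806 for those of 24 h.

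**Figure D3:**
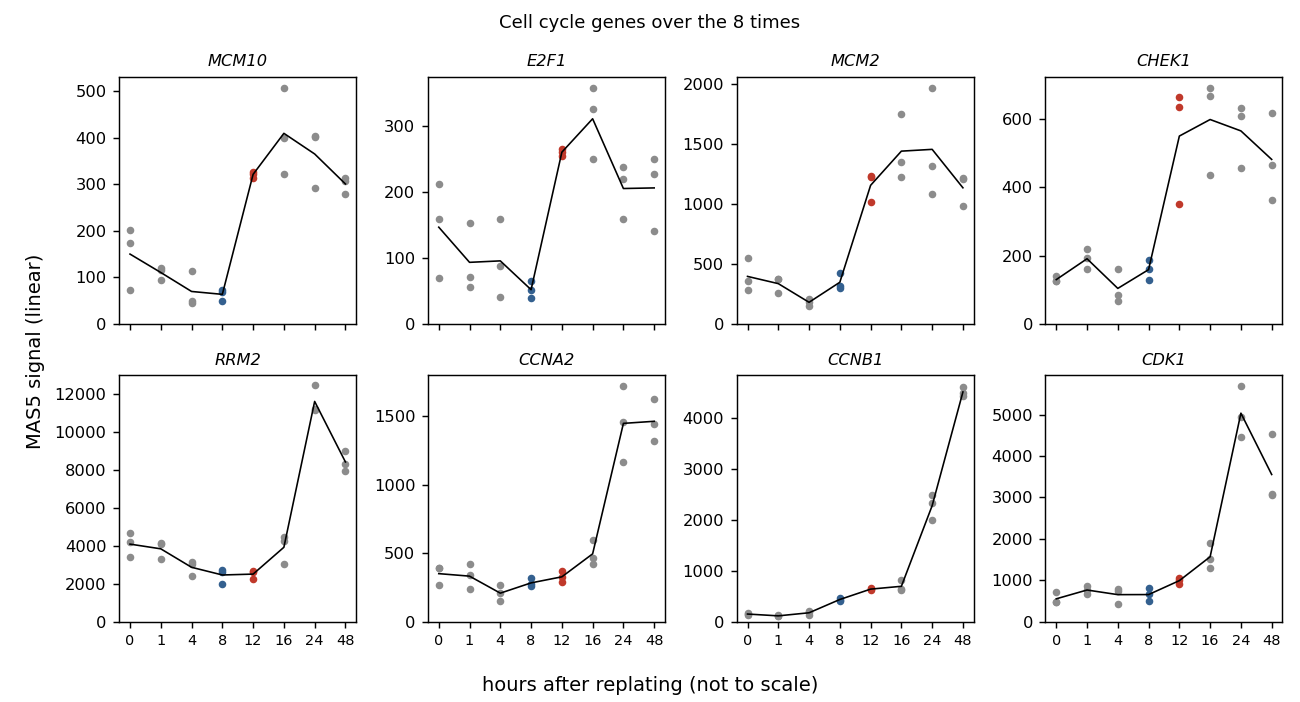
MAS5 signals (linear axes) of 8 cell cycle genes over the 8 times, which are spaced evenly and not to scale. Dots are arrays, red at 12 h and blue at 8 h, and lines join the means. MCM10, E2F1, MCM2 and CHEK1 are higher at 12 h than at 8 h and have their highest means at 16 or 24 h. RRM2, CCNA2, CCNB1 and CDK1 are highest at 24 or 48 h.

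The arrays of 16 h and 4 h flank the comparison in time. Their signals do not enter the difference of means, but like all 24 arrays they entered the spread of the fit, the filter and the choice of probe set, and so which genes were called. In all 34 replication genes past the adjusted p, the 3 arrays of 16 h lay above the 3 of 4 h, against 19.8% of all genes tested. Of the 58 genes lower at 12 h, 53 had all 16 h arrays below all 4 h arrays and 1 had them above, against 19.9% of all genes below. These are descriptions for that reason, and since the lists had been drawn up with results of the whole course known.

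The later step, 24 h minus 16 h, shares no array with 12 h minus 8 h, and spans 8 h rather than 4 h. The difference between the steps was at least 2-fold in favour of 12 h over 8 h in 24 genes (0.241%) and in favour of 24 h over 16 h in 48 (0.482%), with an adjusted p under 0.05. Among the 120 replication genes, 13 had the larger step at 12 h over 8 h: E2F1, CCND1, CCNE2, ORC6, GMNN, MCM2, MCM4, MCM5, MCM6, MCM10, GINS2, CHEK1 and DTL. Of these, CCND1 did not pass for 12 h over 8 h itself, and its mean was lower at 24 h than at 12 h, as given above. For MCM2 the log2 difference was 1.70 at 12 h over 8 h and -0.01 at 24 h over 16 h, which differ by 1.72 ± 0.31 (SE, adjusted p = 0.0025, limma). For E2F1 the steps were 2.02 and -0.56 (difference 2.58 ± 0.54, adjusted p = 0.0087). The reverse held for RRM2, at 0.03 for 12 h over 8 h and 1.58 for 24 h over 16 h (difference -1.54 ± 0.21, adjusted p = 0.00012), and for CCNA2, at 0.20 and 1.51 (difference -1.31 ± 0.31, adjusted p = 0.028).

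Of the 40 G2 and mitosis genes, 0 had the larger step at 12 h over 8 h and 8 the larger step at 24 h over 16 h, and the median difference between steps was -0.98. They were CCNB1, AURKA, AURKB, NUSAP1, PRC1, PTTG1, HMMR and DLGAP5. NUSAP1, a spindle protein, had a log2 difference of -0.02 at 12 h over 8 h and 2.22 at 24 h over 16 h (difference -2.24 ± 0.21, adjusted p = 4.9e-08, limma). The mitotic kinase AURKA had 0.67 and 2.16 (difference -1.49 ± 0.32, adjusted p = 0.014).

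The neighbouring steps share arrays with 12 h over 8 h, the step 8 h over 4 h its 8 h arrays and the step 16 h over 12 h its 12 h arrays. Against 8 h over 4 h, 57 genes (0.572%) had a larger step at 12 h over 8 h and 16 (0.161%) a smaller one, and 7 replication genes were among the larger: CCND3, GMNN, MCM4, CDC45, GINS1, RFC3 and NASP. RFC3 had a log2 difference of 1.34 at 12 h over 8 h and -0.37 at 8 h over 4 h (difference 1.71 ± 0.32, adjusted p = 0.0049). Of the 34 replication genes past the adjusted p, some were already higher at 8 h than at 4 h: DTL (log2 difference 1.27), MCM3 (1.05), POLE2 (0.92), MCM2 (0.89), DNMT1 (0.67), MCM6 (0.65) and GINS2 (0.53), with adjusted p from 0.00013 for MCM3 to 0.0496 for GINS2. For MCM3 and DNMT1 these values exceeded those of 12 h over 8 h, which were 0.68 and 0.64. CCND3 was lower at 8 h than at 4 h (-0.63, adjusted p = 0.025). Against 16 h over 12 h, 0 genes (0%) had a larger and 0 (0%) a smaller step. An unadjusted p under 0.05 in limma, the 1 tool used, was found in 516 of 9966 genes. That share is near the 0.05 that such a threshold lets through when no step differs. GINS2 and CCNE2 were also higher at 16 h than at 12 h, with log2 differences of 1.07 (adjusted p = 0.0013) and 1.11 (adjusted p = 0.016).

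Lists of growth control that might accompany entry into S phase had 0 genes past the adjusted p. They were 21 CDK inhibitors, p53 targets and quiescence genes (median log2 difference 0.02, 6 at an unadjusted p under 0.05), 13 genes of the MYC network (-0.22, 3) and 21 of ribosome biogenesis (-0.10, 3). For comparison, 1290 of all 9966 genes tested had an unadjusted p under 0.05 in limma. The inhibitor CDKN1A had 3319, 2971 and 3648 at 12 h, against 3001, 3243 and 2662 at 8 h, with overlap (0.16 ± 0.13, adjusted p = 0.69). MYC, a transcription factor of growth, had 3329, 3204 and 3001 at 12 h, against 3908, 4374 and 4771 at 8 h. Its 12 h arrays were all lower, but the log2 difference of -0.45 ± 0.21 did not pass (adjusted p = 0.37).

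Of the 58 genes lower by the adjusted p, 13 were on 4 lists of hepatocyte metabolism, as were 7 of the 17 lower at least 2-fold. The others were on none of these lists. By the adjusted p, 18.8% of drug metabolism and 19.0% of amino acid genes tested were lower. The shares were 11.1% for bile acid and transport and 7.69% for gluconeogenesis, against 0.582% of all genes tested. Of 32 drug metabolism genes, 6 were lower by the adjusted p, 3 at least 2-fold, and the median log2 difference was -0.37. CYP1A1, the cytochrome P450 induced through the aryl hydrocarbon receptor, had 1252, 1373 and 1313 at 12 h, against 4547, 4666 and 2835 at 8 h. The 12 h arrays were close together and below all 8 h arrays (log2 difference -1.57 ± 0.32, adjusted p = 0.0072, limma). Its mean was 185 at 0 h, 2812 at 4 h and 291 at 16 h. SULT2A1, a sulfotransferase of steroids and bile acids, had 895, 797 and 956 at 12 h, against 2139, 2580 and 2014 at 8 h (-1.32 ± 0.24, adjusted p = 0.0019, and -1.55 by a second probe set), after a mean of 6446 at 0 h. ADH1B, an alcohol dehydrogenase, had 2740, 2593 and 2486 at 12 h, against 4389, 5450 and 6154 at 8 h (-1.01 ± 0.27, adjusted p = 0.048). It did not overlap, but its call was lost whichever of the 6 arrays was left out. ADH6, CYP1B1 and NNMT passed the adjusted p alone, with log2 differences of -0.82, -0.80 and -0.61. Leaving out 1 array ended the call of ADH6 in 3 of 6 fits, and those of CYP1B1 and NNMT in 4 of 6 each.

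Of 21 genes of amino acid catabolism and the urea cycle, 4 were lower by the adjusted p, 3 at least 2-fold, and 20 of 21 had a negative difference, with a median of -0.50. TDO2, which opens the ring of tryptophan, had 730, 1115 and 1042 at 12 h, against 2631, 2343 and 2769 at 8 h. All 12 h arrays lay below the 8 h arrays by a wide margin (log2 difference -1.43 ± 0.25, adjusted p = 0.0015, limma). MAT1A, the liver enzyme that makes S-adenosylmethionine, had 1645, 1538 and 1628 at 12 h, against 2695, 3771 and 4567 at 8 h (-1.16 ± 0.16, adjusted p = 5.1e-05). Arginase (ARG1), the last enzyme of the urea cycle, had 830, 843 and 981 at 12 h, against 1809, 2227 and 2380 at 8 h. Its log2 difference was -1.25 ± 0.27 (adjusted p = 0.012), and the call was lost without 12 h replicate 1, 12 h replicate 2 or 8 h replicate 3, with an adjusted p of up to 0.076. Glutamine synthetase (GLUL) passed the adjusted p alone (-0.50), and in none of the 6 fits with 1 array left out (adjusted p up to 0.16).

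Of 18 bile acid and transport genes, 2 were lower by the adjusted p alone, the phospholipid exporter ABCB4 (-0.77) and the bile acid synthesis enzyme CYP27A1 (-0.67). With 1 array left out, ABCB4 passed in 4 of 6 fits and CYP27A1 in 1 of 6. In gluconeogenesis, 1 of 13 genes was lower, the glucose-6-phosphatase G6PC1, with 2.40, 13.1 and 4.91 at 12 h, against 62.1, 50.7 and 81.4 at 8 h. Its earlier means were 1179 (0 h), 2237 (1 h) and 204 (4 h), and its 12 h signals lay under the 18 added to each signal (log2 difference -1.74 ± 0.38, adjusted p = 0.013). The 30 plasma protein genes, 14 acute phase genes and 19 hepatocyte transcription factors had 0 past the adjusted p, with medians of -0.25, -0.25 and -0.23. At an unadjusted p under 0.05 in limma were 8, 6 and 2 of them, against 1290 of all 9966 genes tested. The lower values on these lists stand beside the lower summed hepatocyte marker signal at 12 h given above, whose part in them was not tested.

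**Figure D4:**
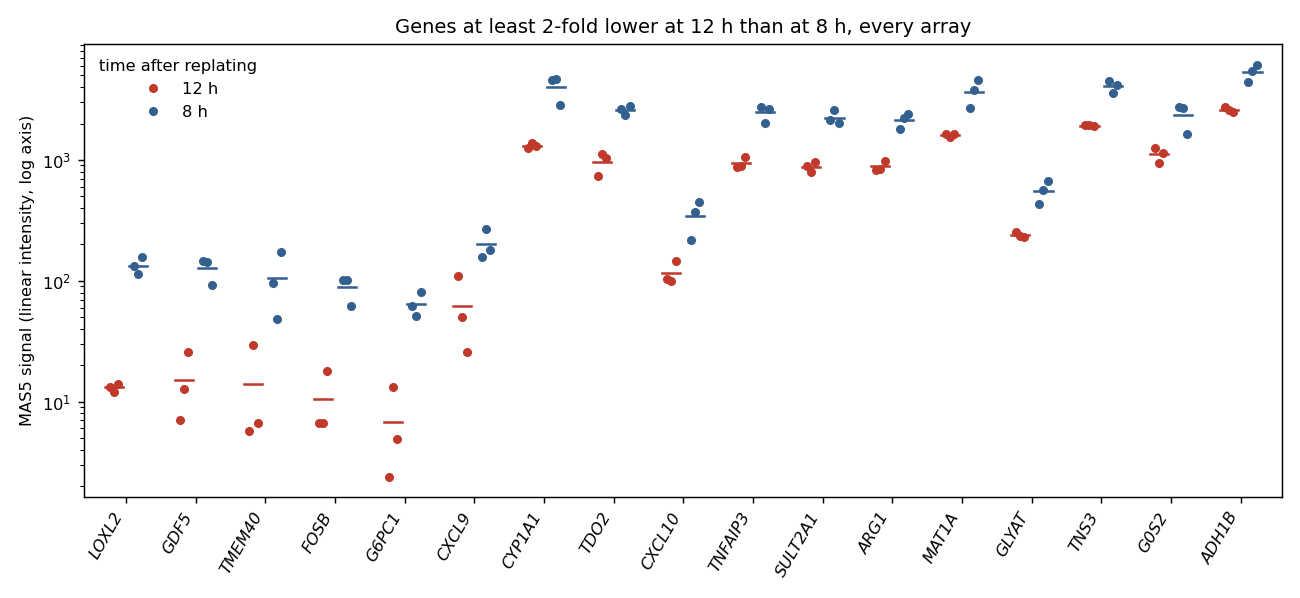
MAS5 signals (linear intensity on a log axis) of the 17 genes at least 2-fold lower at 12 h with an adjusted p under 0.05. Each dot is 1 array, with 12 h left of 8 h, and bars are means of 3 arrays; the first 5 genes have 12 h means under the 18 added before taking logs, and the others include bright liver enzymes such as ADH1B and MAT1A.

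Genes of the early response to stress and growth signals were also among the lower ones. Of 26 cytokine, chemokine and NF-kappaB genes, 2 were lower, both at least 2-fold (median -0.33). TNFAIP3, an enzyme that ends NF-kappaB signalling, had 868, 898 and 1054 at 12 h, against 2768, 2025 and 2618 at 8 h (log2 difference -1.37 ± 0.21, adjusted p = 0.00017, limma, and -1.77 by a second probe set). It had averaged 8826 at 1 h and 533 at 0 h. The chemokine CXCL10 had 103, 99.4 and 145 at 12 h, against 218, 368 and 451 at 8 h, without overlap (-1.40 ± 0.27, adjusted p = 0.0037, and up to 0.058 without 8 h replicate 3). Of 36 immediate early genes, 2 were lower (median -0.25). FOSB, a partner of JUN in AP-1, had 6.68, 6.70 and 18.1 at 12 h, against 101, 102 and 61.6 at 8 h (-1.90 ± 0.45, adjusted p = 0.023), after a mean of 4854 at 1 h. Its signals at 12 h were close to or under the 18 added, and its call was lost in 4 of the 6 fits with 1 array left out. DUSP6, a phosphatase that switches off ERK, passed the adjusted p alone (-0.99), and in 1 of 6 fits with 1 array left out. On the mean of its probe sets DUSP6 had -0.55 and did not pass (adjusted p = 0.51, against 0.018 to 0.18 over the other alternatives).

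**Figure D5:**
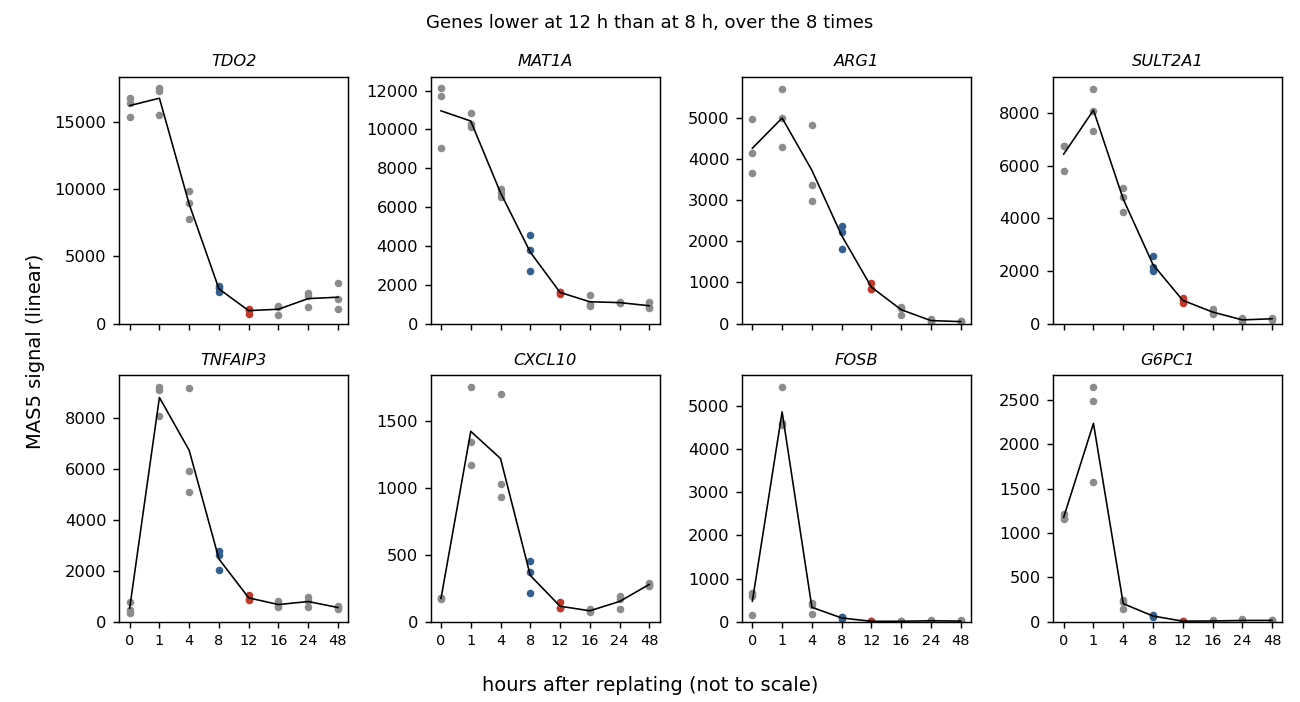
MAS5 signals (linear axes) of 8 genes lower at 12 h than at 8 h, over the 8 times, spaced evenly. Dots are arrays, red at 12 h and blue at 8 h, and lines join the means; TDO2, MAT1A, ARG1 and SULT2A1 start high at 0 h, whereas TNFAIP3, CXCL10 and FOSB are highest at 1 h.

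The largest negative log2 difference was that of LOXL2, a lysyl oxidase that crosslinks collagen, with 13.1, 12.1 and 14.1 at 12 h, against 132, 113 and 156 at 8 h. The replicates were tight at both times, but the 12 h signals were under the 18 added, and the value of -2.28 ± 0.54 (adjusted p = 0.023, limma) lost its call whichever of the 6 arrays was left out. A second LOXL2 probe set gave -1.21 and did not pass. TNS3, a tensin of focal adhesions, was bright at both times, at 1944, 1929 and 1910 at 12 h, against 4535, 3602 and 4138 at 8 h. It lay clear of overlap, with a log2 difference of -1.07 ± 0.15 (adjusted p = 4.2e-05).

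Outside the replication lists, 12 genes were at least 2-fold higher at 12 h, and several have roles near replication or division. PCLAF, which binds PCNA, had 2206, 2146 and 2038 at 12 h, against 1409, 971 and 774 at 8 h (log2 difference 1.05 ± 0.14, adjusted p = 2.9e-05, limma, and 1.65 by a second probe set). VRK1, a nuclear kinase, had 600, 650 and 628 at 12 h, against 362, 266 and 229 at 8 h, with the 12 h arrays nearly level (1.11 ± 0.20, adjusted p = 0.0018). POSTN, an extracellular matrix protein of mesenchymal cells, had 2200, 1883 and 1464 at 12 h, against 738, 743 and 826 at 8 h (1.23 ± 0.17, adjusted p = 2.9e-05). It averaged 3880 at 24 h, against 176 at 0 h, and its difference at 12 h stands beside the higher stellate and fibroblast marker sum given above, whose part in it was not tested. The others were PCDH9, ELOA-AS1, MAD2L1, PLCL2, TTK, ZWILCH, AMIGO2, TRIP13 and MID1.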

How the data were processed

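RNA of HepaRG cells was measured on a 1-colour Affymetrix human array with 22283 probe sets, 68 of them controls. The deposited values are linear intensities, 1 per probe set and array, which the authors made with MAS5, per the submitters' processing notes. Neither the version nor the scaling of MAS5 is given in the sources used here. The 3′ labelling, per the labels' protocols, reads mainly transcript ends. No detection calls were used here, so a dim signal has no stated limit, and precision is limited by the number of arrays.

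For the 22215 other probe sets, 18 (the 20th percentile of all signals) was added to each signal before taking log2, with no further normalization. The 17122 probe sets above their array's 40th percentile on at least 3 of 24 arrays were tested. In the array's annotation 19065 probe sets had 1 symbol, 1043 had several, which were left unnamed, and 2107 had none. Each of 9966 genes was read from 1 tested probe set, the brightest on average, which for 763 genes was one that can bind related sequences. All 8 times entered 1 limma fit (lmFit and eBayes with a variance trend, limma 3.58.1, R 4.3.3, 16 residual degrees of freedom), so 12 h and 8 h share the spread of all times. Genes were called at a Benjamini-Hochberg adjusted p under 0.05 with at least 2-fold, or by the adjusted p alone, as stated. On simulated data for 12 h against 8 h over 9966 genes, 48% of 100 genes changed by 1 log2 unit and 84% of 100 changed by 2 passed the adjusted p, with 8 false calls.

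No arrays held identical values. Deviations of 12 h and 8 h arrays with the same replicate number correlated at -0.01, -0.02 and 0.00, so numbers were not used as pairs. The members and gene lists were chosen with earlier results of these data known. Genes were named by a rule: the largest differences in each direction, up to 4 past the adjusted p on each other list, all past it on the replication lists, and a set of cell cycle genes whatever their values; UHRF1 of that set was not tested. Other genes named with list counts were chosen after their values were seen.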

Additional observations from a re-analysis of the deposited data

How the results depend on the processing

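The 19 replication genes higher at least 2-fold were 15 to 23 across the alternatives that count genes, and their list median was 0.52 to 0.69. Of 82 named genes, no called gene turned its sign, whereas RRM2 (-0.10 to 0.12) and CCNE1 (-0.14 to 0.41), neither called, did. With a larger pseudocount of 74.1, 19 genes in all were at least 2-fold higher, against 31. Without the variance trend, 65 genes passed the adjusted p alone (41 higher, 24 lower), against 141, with 22 replication genes higher, 42 genes whose step differed from 24 h over 16 h (against 72) and 44 whose step differed from 8 h over 4 h (against 73). After median centring, 30 genes were lower by the adjusted p alone, against 58. With only the 12 h and 8 h arrays in the fit, 23 genes were at least 2-fold higher and 19 lower, against 31 and 17. By the adjusted p alone that fit had 65 higher and 72 lower, against 83 and 58, so the larger count changed side. Leaving out 1 array in turn gave 7 to 14 genes lower at least 2-fold, 49 to 96 past the adjusted p alone (35 to 60 higher, 14 to 38 lower), 22 to 29 replication genes higher, and 21 to 60 genes whose step differed from 8 h over 4 h, the fewest without 8 h replicate 2. With 1 array fewer, fewer samples enter the test; for the other settings the cause was not tested. With the replicate number as a replicate block, 47 genes passed at 2-fold, against 48, and 140 by the adjusted p alone; as the numbers share only a name, this is no paired result. The array's dim end limits LOXL2, GDF5, TMEM40, FOSB and G6PC1, whose 12 h means lay under 18.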

Other observations

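Genes whose signal over all 24 arrays ran most like that of the called replication genes, and that were on none of their lists, were VRK1 (Pearson r = 0.947), CKS1B (0.945), USP1 (0.944), VBP1 (0.942), LSM2 (0.941), DNAJC9 (0.935), ICMT (0.934), EXOSC8 (0.931), MAD2L1 (0.923) and SF3A3 (0.921). All arrays share the same time course, so these correlations are descriptions. CKS1B, a small subunit of CDK complexes, and USP1, which removes ubiquitin from PCNA in repair, had log2 differences, 12 h minus 8 h, of 0.71 and 0.65 (adjusted p = 0.020 and 0.023, limma), and passed in 2 and 1 of 6 fits with 1 array left out.

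Among genes past the adjusted p alone and on none of the replication lists, several act at forks or in repair, and they were picked out after their values were seen. DONSON, a replication fork protein, had a log2 difference of 0.75, RAD51C, a recombination protein, 0.86, and DDB2, which recognises ultraviolet damage, 0.64. On the lower side were enzymes and a carrier of liver metabolism, also picked afterwards: FABP1, the liver fatty acid binding protein, at -0.77, HAO1, a peroxisomal oxidase of glycolate, at -0.77, and CDO1, which oxidises cysteine, at -0.81. With 1 array left out, DDB2 and FABP1 passed in 0 of 6 fits, DONSON in 1, and RAD51C, HAO1 and CDO1 in 2 each.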
